A study of Mus musculus with 14 samples.

Results

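The question of this comparison was whether loss of Nr2f2, the gene of the nuclear receptor COUP-TFII (Coup-tfII in the labels), had the same effect on the fetal mouse ovary at 2 embryonic days, E14.5 and E16.5. All 14 of the 14 arrays of the series took part, as the difference is a contrast over the 4 groups: 3 controls and 3 knockouts of the earlier stage, 4 controls and 4 knockouts of the later one. The tissue of each array was ovary. Dams of every group, controls included, received tamoxifen on E11.5 and E12.5 at 2 mg per 10 g of body weight, so that tissue was taken 2 days after the last dose at E14.5 and 4 days after it at E16.5. Stage and time since recombination therefore cannot be told apart. Knockout embryos carried floxed COUP-TFII alleles (flox/flox) and WT1-CreERT2, a tamoxifen-activated Cre recombinase expressed where the Wt1 gene is active. The sources used here do not give the genotype of the controls or whether they carried Cre. The mice were of mixed background, from the strains C57BL/6, Swiss Webster and B6129SF1/J. The labels call the arrays biological replicates and do not name litters, so p-values measure the spread between these samples.

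COUP-TFII is an orphan nuclear receptor that binds DNA at repeats of the half-site AGGTCA and acts mostly in mesenchymal and stromal cells. In the fetal ovary it is known from the interstitial cells between the germ cell nests, and from the mesenchyme of the neighbouring mesonephros. Wt1 is active in cells that derive from the coelomic epithelium, among them the surface epithelium, pre-granulosa cells and part of the interstitium, and not in germ cells. Over the days studied, female germ cells leave the pluripotency program and enter meiosis, while pre-granulosa cells, marked by Foxl2, take shape around them.

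The effect at a stage is the knockout mean minus the control mean on the scale log2(signal + 16), where signal is the deposited probe set intensity. The difference is the E16.5 effect minus the E14.5 effect, and it equals the change over time in knockouts minus the change over time in controls. One probe set stood for each of 18193 genes, and the 12406 genes above a signal of about 62.0 were tested with limma, at a threshold of 0.05 on the Benjamini-Hochberg adjusted p. Array measures moved with stage. The Gapdh 3' minus 5' difference, a measure of how far labelling reached along a transcript, was between -0.42 and -0.06 (log2) on the 6 E14.5 arrays, 1.75 ± 0.07 (SD, n = 4) in E16.5 controls and 1.37 ± 0.31 (SD, n = 4) in E16.5 knockouts. The bioB hybridization control read 1585 to 2093 at E14.5, 3923 to 5021 in E16.5 controls and 4457 to 17321 in E16.5 knockouts. Among the E16.5 knockouts, replicates 1 and 4 read 11055 and 17321, with Gapdh differences of 0.94 and 1.32. Replicates 2 and 3 read 5545 and 4457, with Gapdh differences of 1.63 and 1.58. Changes over time, and levels compared between the stages, cannot be told apart from these differences between arrays. The ovary's defining genes were present throughout, with Foxl2 between 1152 and 2695 on all arrays, and the Sertoli cell hormone Amh was at most 12.46. In bulk tissue, fewer cells of a type and less RNA per cell cannot be told apart.

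Nr2f2 itself fell in the knockouts when the stages were averaged, and its probe sets differed in how the fall was spread over the stages. The signals of its brightest probe set were 217, 493 and 422 in E14.5 controls, 155, 252 and 267 in E14.5 knockouts, 3819, 4950.3, 4309 and 4250.4 in E16.5 controls and 2462, 2261, 3359 and 2053 in E16.5 knockouts. The E16.5 groups did not overlap, while E14.5 control replicate 1, at 217, lay among the E14.5 knockouts. The effect was -0.67 ± 0.25 (SE) at E14.5 and -0.79 ± 0.22 at E16.5, and neither passed alone on this probe set (limma adjusted p = 0.444 and 0.0753). Averaged over the stages Nr2f2 fell by 0.73 ± 0.17 (SE, limma adjusted p = 0.0396), a call that 4 of the 14 fits without 1 array retained and that ended with the Gapdh difference as a covariate (adjusted p = 0.0904). The difference was -0.12 ± 0.33, with a 95% interval of -0.83 to 0.58. With the mean of its probe sets in place of the brightest, Nr2f2 fell at E16.5 by 1.24 ± 0.25 (SE, limma adjusted p = 0.0251), and the difference was -0.66 ± 0.38 (adjusted p = 0.666).

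The 5 other probe sets of Nr2f2 gave differences of -1.61, -1.14, -0.89, -0.34 and 0.13. The set with the largest difference read 19.3, 349.7 and 207 in E14.5 controls, 34.6, 65.6 and 79.1 in E14.5 knockouts, 1984, 1886, 1797 and 2227 in E16.5 controls and 302, 270.0, 409 and 303 in E16.5 knockouts. All 4 E16.5 knockout arrays lay below all 4 controls there, with an effect of -2.57 (log2), and E14.5 control replicate 1 was again the low control. Another set read 268, 349.8 and 273 in E14.5 controls, 219, 161 and 259 in E14.5 knockouts, 1064, 896, 941 and 994 in E16.5 controls and 226, 334, 523 and 232 in E16.5 knockouts, with no overlap at either stage. For this set, with a difference of -1.14, the interval was -1.82 to -0.45 and the unadjusted p 0.00252 (limma adjusted p = 0.52 over all probe sets). In the fit over all probe sets the E16.5 fall passed on 3 of the 6, at -1.60, -2.57 and -1.79 (limma adjusted p = 0.00295, 0.0135 and 0.0448), and the E14.5 effect on none. In controls the mean of the brightest set was 377 at E14.5 and 4332 at E16.5, whereas that of another was 568 and 236, so the probe sets did not give 1 course over time. Wt1, which drives the Cre, had signals of 3772, 5309 and 5622 in E14.5 controls, 3313, 4792 and 4369 in E14.5 knockouts, 4332, 4431, 4131 and 3986 in E16.5 controls and 3284, 3167, 3465 and 3156 in E16.5 knockouts. The Wt1 groups overlapped at E14.5 and not at E16.5, neither effect passed, and its difference was -0.13 ± 0.19 (SE).

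No gene passed the test of the stage difference. Of 12406 genes, 0 (0%) had an adjusted p under 0.05, the smallest being 0.398, while 1105 genes (8.91%) had an unadjusted p under 0.05, 588 (4.74%) with a positive difference and 517 (4.17%) with a negative one. The median SE of the difference was 0.24 (log2) and its 95% interval, which is not adjusted for the number of genes, reached a median of 0.50 to either side. The threshold on the adjusted p asks for more than that interval. Differences as large as 2.60 for Tpsb2, -1.93 for Pmaip1 and 3.18 for Sox2 did not pass. That 0 genes passed therefore does not show equal effects at the 2 stages. Over all genes the 2 effects had a Pearson correlation of 0.222 and a Spearman correlation of 0.182, as a description over genes, which are not independent replicates. At a single stage 5 genes (0.0403%) passed at E14.5 and 176 (1.42%) at E16.5, and averaged over the stages 177 (1.43%) passed, 144 (1.16%) higher and 33 (0.266%) lower. With the Gapdh difference as a covariate in the fit, 0 of the 5 E14.5 calls passed (adjusted p 0.0686 to 0.072), 17 of the 176 E16.5 calls and 49 of the 177 averaged ones. In that measure every E16.5 knockout (at most 1.63) lay below every E16.5 control (at least 1.67). At E16.5 the covariate therefore went with the genotype, and the fit could tell the 2 apart only in part, by the spread within groups. A call that ended with the covariate is not shown to come from either. The E16.5 calls named below that passed with it were Cga, Frem1, Pdgfra, Ephx1, Ccng1, Cdkn1a and Wnt5a, and each other E16.5 call named below did not.

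The count for the difference hung on single arrays: without E14.5 knockout replicate 3, 30 genes passed (22 positive, 8 negative), and without E16.5 control replicate 2, 1 gene did. The 12 other fits without 1 array gave 0. That 1 gene was Cwc22, a splicing factor, whose signal was 767, 6452, 612 and 729.6 in E16.5 controls and 4373, 7291, 5846 and 6262 in E16.5 knockouts, so that 1 control read like the knockouts. With no filter on low signals 1 gene passed, Mymx, which encodes a small membrane protein of muscle cell fusion. Mymx had signals of 3.29, 4.72 and 2.58 in E14.5 controls, 67.5, 47.7 and 59.95 in E14.5 knockouts, 61.8, 148, 91.7 and 109.5 in E16.5 controls and 50.2, 47.8, 66.7 and 72.9 in E16.5 knockouts, a difference of -2.54 ± 0.37 (SE, limma adjusted p = 0.0455), and it lay below the filter.

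**Figure D1:**
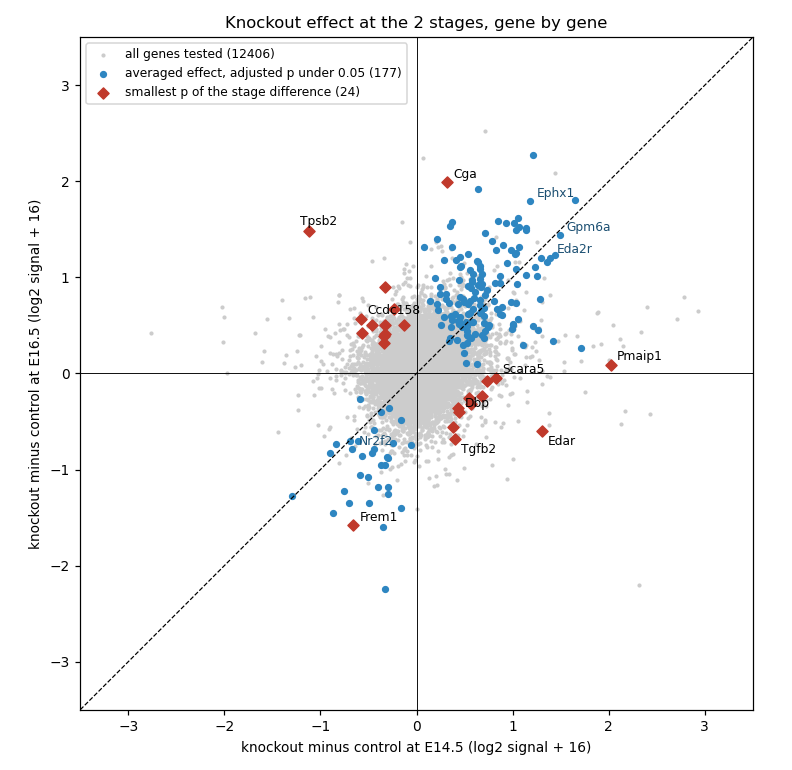
Knockout effect at E14.5 (horizontal axis) against E16.5 (vertical axis), both in log2(signal + 16), for the 12406 genes tested; the dashed line marks equal effects. Blue points are the 177 genes whose averaged effect passed and lie in the upper right and lower left, and red diamonds are the 24 genes with the smallest p of the difference, of which 21 have effects of opposite sign.

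The genes with the smallest p of the difference, 12 in each direction, are described here as values, since they were picked on that contrast and none passed (limma adjusted p = 0.398 for all 24). In 21 of the 24 the effects at the stages had opposite signs, and 10 had arrays that did not overlap at either stage, in opposite directions, against 49 such genes (0.395%) among all tested. The control arrays of 11 of the 12 with a positive difference had a lower mean at E16.5 than at E14.5, against 53.6% of all genes, and those of all 12 with a negative difference had a higher one, by under 0.1 for Pdgfc and Enpp4. The size of the change over time was smaller in knockouts for 21 of the 24, against 59.1% of all genes. The choice of the genes on the difference, computed from the same group means, favours all of these counts. Of the 16 with more than 1 probe set, 10 had every set on the same side.

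Among the genes with a negative difference, Tgfb2, a ligand of the TGF-beta receptors, had signals of 546, 607 and 530.4 in E14.5 controls, 634, 979 and 671 in E14.5 knockouts, 2108, 1996, 1929 and 1943 in E16.5 controls and 983, 1425, 1532 and 1087 in E16.5 knockouts. The control mean was 1.80 (log2) higher at E16.5 than at E14.5 and the knockout mean 0.72 higher, and knockouts were the higher group at E14.5 and the lower one at E16.5, without overlap at either stage. The effect was 0.40 ± 0.17 at E14.5 and -0.68 ± 0.15 at E16.5 (SE), and the E16.5 fall passed (limma adjusted p = 0.0322), as it did in 8 of 14 fits without 1 array. All 4 probe sets of Tgfb2 gave a negative difference, -1.09 ± 0.23 for the brightest, with an interval of -1.57 to -0.60.

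Edar, the receptor of ectodysplasin in the TNF receptor family, showed a like pattern with signals of 11.54, 21.8 and 36.0 in E14.5 controls, 40.2, 84.3 and 129 in E14.5 knockouts, 151, 139, 102 and 135 in E16.5 controls and 77.0, 94.0, 89.1 and 65.3 in E16.5 knockouts. The groups did not overlap at either stage, with effects of 1.31 ± 0.32 and -0.60 ± 0.28 (SE). One of its 2 probe sets gave a difference of the other sign. Pdgfc, a ligand of PDGF receptor alpha, had signals of 1332, 1720.2 and 1717 in E14.5 controls, 2075, 2942 and 2692 in E14.5 knockouts, 1857, 1937, 1447 and 1425 in E16.5 controls and 1381, 1415, 1566 and 1249 in E16.5 knockouts. Its 3 E14.5 knockouts were above the controls by 0.68 ± 0.16 (SE), whereas the E16.5 groups overlapped. From E14.5 to E16.5 the Pdgfc mean moved by 0.06 (log2) in controls and -0.86 in knockouts.

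The receptor of Pdgfc, Pdgfra, a marker of interstitial progenitors, also had a negative difference (-0.95 ± 0.29, SE, unadjusted p = 0.00417, adjusted p = 0.452 by limma). Pdgfra signals were 2062, 4299 and 4404 in E14.5 controls, 2733, 2672 and 2859 in E14.5 knockouts, 3151, 2735, 3409 and 3019 in E16.5 controls and 1194, 1193, 1669 and 1127 in E16.5 knockouts. At E16.5 it fell by 1.25 ± 0.19 (SE, limma adjusted p = 0.00457), in 14 of 14 fits without 1 array. At E14.5 the knockouts lay between the low control replicate 1 and the other controls, and the effect of -0.30 did not pass. Gli2, a transcription factor of the hedgehog pathway, read 526, 583 and 521 against 495, 563 and 512 at E14.5, controls first, and 1482, 1145, 1353 and 1383 against 543, 983, 981 and 553 at E16.5. It fell by 0.85 ± 0.18 at E16.5 (SE, limma adjusted p = 0.0221, 9 of 14 fits without 1 array), next to -0.05 at E14.5, with a difference of -0.80 ± 0.27 (SE, adjusted p = 0.51). Bmp5, a bone morphogenetic protein, read 296, 375 and 225 against 379, 300.1 and 351 at E14.5 and 204, 236, 148 and 102 against 506, 395, 564 and 399 at E16.5. It rose by 1.40 ± 0.22 at E16.5 (SE, limma adjusted p = 0.00533, 14 of 14 fits, but 0.0931 with the Gapdh covariate) with no overlap, while the E14.5 groups overlapped at an effect of 0.21. The stage difference of Bmp5 was 1.18 ± 0.33 (SE, adjusted p = 0.398).

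Frem1, Scara5, Speg, Enpp4 and Cast also had a negative difference. Frem1, an extracellular matrix protein of the Fraser complex at basement membranes, had signals of 631, 1024 and 971 in E14.5 controls, 630.3, 449.6 and 545 in E14.5 knockouts, 1296, 1344, 1245 and 1208 in E16.5 controls and 442, 370.0, 452 and 399.7 in E16.5 knockouts. It was lower in knockouts at both stages with no overlap beyond a near tie at E14.5 between control replicate 1 and knockout replicate 1, by -0.66 ± 0.17 at E14.5 and -1.58 ± 0.15 at E16.5 (SE). The E16.5 fall had the smallest p among all genes at that stage (limma adjusted p = 6.99e-05) and held in 14 of 14 fits without 1 array. The averaged fall passed too (limma adjusted p = 0.000106), and the larger value at E16.5 did not pass as a difference (-0.92 ± 0.23, SE). The 5 other tested members of the Fraser list had averaged effects that did not pass, among them Fras1 (0.62 at E14.5, 0.13 at E16.5) and Npnt (-0.08, -0.57).

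Scara5, a ferritin receptor of mesenchymal cells, had signals of 477, 459 and 548 in E14.5 controls, 1011, 900.0 and 774 in E14.5 knockouts, 827, 853, 847 and 599 in E16.5 controls and 683, 881, 816 and 645 in E16.5 knockouts. Knockouts were above controls at E14.5 without overlap (0.83 ± 0.17, SE, adjusted p = 0.102) and overlapped them at E16.5 (-0.04 ± 0.14, SE). Speg, a muscle kinase, and Enpp4, a membrane phosphodiesterase, also stood above the controls on all 3 E14.5 knockout arrays, with effects of 0.55 and 0.44, against -0.25 and -0.36 at E16.5. Cast, the calpain inhibitor calpastatin, read 297, 378 and 300.3 in E14.5 controls and 649.9, 505 and 498 in E14.5 knockouts, an effect of 0.73 ± 0.14 (SE, limma adjusted p = 0.102), and -0.08 at E16.5, where controls read 1277, 1220.4, 1319 and 1189. The Cast knockouts of E14.5 thus lay between the E14.5 controls and the E16.5 arrays. One of the 2 probe sets of Scara5 and 1 of the 3 of Cast gave a positive difference, as did 2 of the 4 of Speg.

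Pmaip1, which encodes the p53-induced cell death protein Noxa, was the one gene of the 24 called at E14.5. Its signals were 61.6, 20.3 and 24.9 in E14.5 controls, 206, 311 and 90.6 in E14.5 knockouts, 172, 132, 188 and 177 in E16.5 controls and 212, 195, 142 and 169 in E16.5 knockouts. All 3 E14.5 knockouts were above all controls and replicates 1 and 2 were as high as most or all E16.5 arrays, while at E16.5 the groups overlapped. It rose by 2.02 ± 0.35 at E14.5 (SE, limma adjusted p = 0.0473), but in 2 of the 14 fits without 1 array only. At E16.5 the effect was 0.09 ± 0.30 (SE), and the difference was -1.93 ± 0.46. The other negative genes were Hmgn3, a nucleosome-binding protein, Dbp, a clock-controlled transcription factor, and Ampd3, an AMP deaminase. Their E14.5 effects were 0.38, 0.44 and 0.56 and their E16.5 effects -0.55, -0.40 and -0.32. Hmgn3 fell at E16.5 (limma adjusted p = 0.0448, 6 of 14 fits without 1 array).

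**Figure D2:**
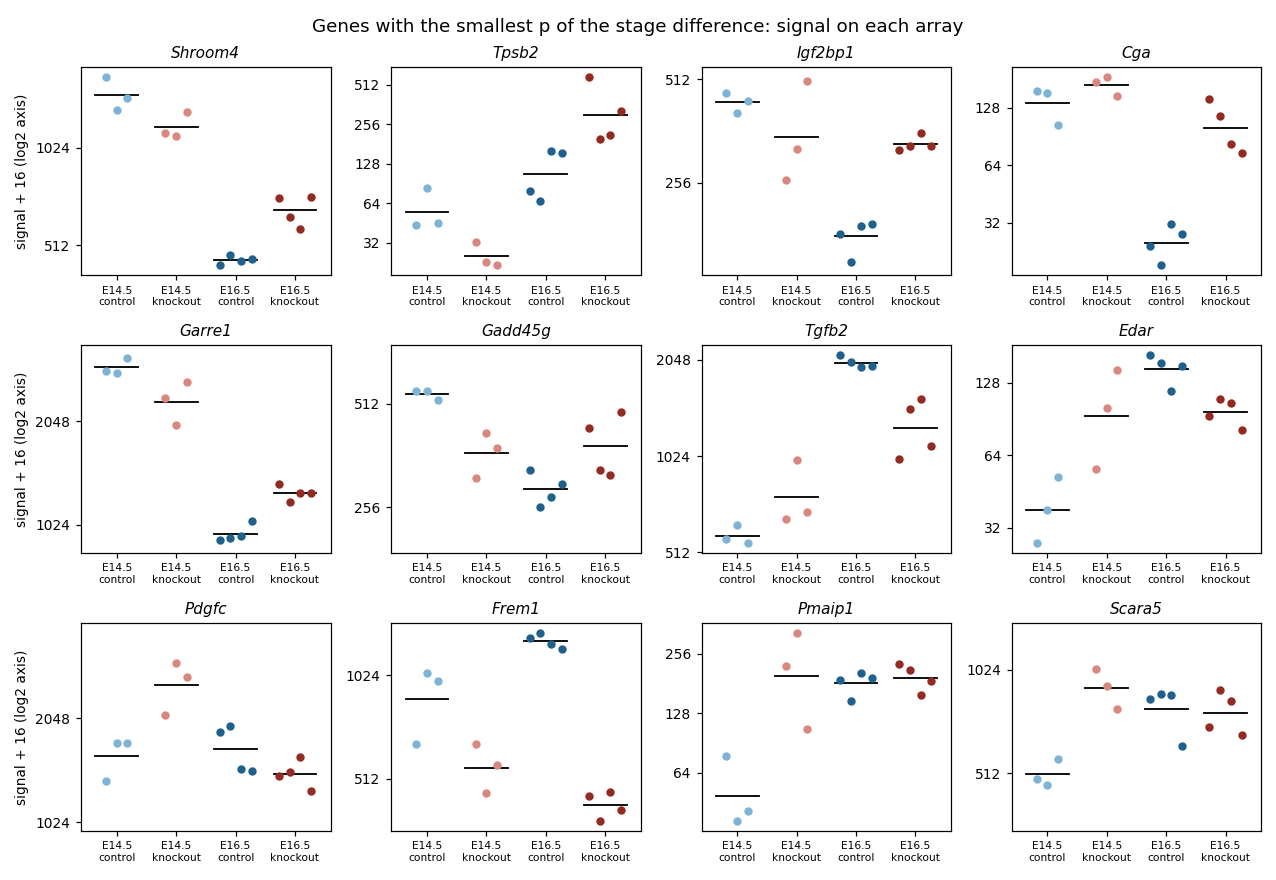
Signal + 16 on each array (log2 axis) of 12 genes with the smallest p of the stage difference, in 4 groups; points are arrays and lines are group means on the log2 scale. Tgfb2 knockouts lie above the controls at E14.5 and below them at E16.5, Shroom4 knockouts the reverse, Cga differs at E16.5 and Pmaip1 at E14.5.

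On the positive side, Cga had the largest E16.5 effect among the 24. Cga encodes the alpha subunit that the pituitary and placental glycoprotein hormones share. Its signals were 140.5, 136 and 87.4 in E14.5 controls, 157, 169 and 132 in E14.5 knockouts, 8.10, 3.19, 15.4 and 12.1 in E16.5 controls and 126, 99.8, 66.9 and 58.1 in E16.5 knockouts. All 4 E16.5 controls were at 15.4 or less and all 4 E16.5 knockouts at 58.1 or more, and the E14.5 groups overlapped. Cga rose at E16.5 by 1.99 ± 0.26 (SE, limma adjusted p = 0.00241), in 14 of 14 fits without 1 array, next to 0.32 ± 0.30 at E14.5. The difference of 1.67 ± 0.40 had an interval of 0.84 to 2.51. Since 16 is added to the signal, the log2 change of a gene this dim understates its fold change.

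Tpsb2, a tryptase of mast cells, had the largest difference of the 24, 2.60 ± 0.56 (SE), and 1 of its 2 probe sets gave a difference of the other sign. Its signals were 27.3, 67.4 and 29.2 in E14.5 controls, 16.6, 6.87 and 5.42 in E14.5 knockouts, 63.9, 50.2, 144 and 139 in E16.5 controls and 573, 183, 195 and 309 in E16.5 knockouts, lower in knockouts at E14.5 and higher at E16.5 without overlap at either stage. The Tpsb2 means at E14.5, 41.3 in controls and 9.62 in knockouts, both lay below the signal of the filter. Those at E16.5, 99.2 and 315, lay above it. The E14.5 part of the Tpsb2 difference therefore rests on dim signals. Igf2bp1, an RNA-binding protein of fetal tissue that binds Igf2 message, read 452, 392.1 and 425 in E14.5 controls, 245, 305 and 491 in E14.5 knockouts, 166, 135, 175 and 179 in E16.5 controls and 302, 312, 342 and 312 in E16.5 knockouts. At E14.5 knockout replicates 1 and 2 were below the controls and replicate 3 above them. At E16.5 Igf2bp1 rose by 0.90 ± 0.18 (SE, limma adjusted p = 0.016), a call lost without E16.5 control replicate 2 or knockout replicate 1 (adjusted p up to 0.0607). Its 4 probe sets split 3 to 1 in sign.

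Shroom4, Arhgap21, Garre1, Trappc3, Scap and Cystm1 also had a positive difference. Shroom4, an actin-binding protein, had signals of 1674, 1321 and 1441 in E14.5 controls, 1117, 1092 and 1297 in E14.5 knockouts, 428, 464, 442 and 448 in E16.5 controls and 701, 608, 559 and 707 in E16.5 knockouts. It was lower in E14.5 knockouts (-0.33 ± 0.13, SE) and rose at E16.5 (0.51 ± 0.12, SE, limma adjusted p = 0.0391, 7 of 14 fits without 1 array), with no overlap at either stage. Arhgap21, Garre1 and Trappc3, a subunit of the TRAPP vesicle-tethering complex, followed the same course. Their E14.5 effects were -0.33, -0.33 and -0.34 and their E16.5 effects 0.41, 0.39 and 0.32, in groups that did not overlap, and neither passed in any of them. Scap, the escort protein of the SREBP factors that drive cholesterol synthesis, and Cystm1, a small membrane protein, rose at E16.5 (0.50 and 0.67, limma adjusted p = 0.0172 and 0.0195, 9 of 14 fits without 1 array for each), with -0.13 and -0.24 at E14.5.

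Gadd45g, a growth arrest protein that also acts early in gonad formation, had signals of 540.1, 541 and 509 in E14.5 controls, 295, 406 and 364 in E14.5 knockouts, 312, 241, 259 and 284 in E16.5 controls and 419, 313, 302 and 469 in E16.5 knockouts. The E14.5 knockouts were below all controls (-0.57 ± 0.18, SE) and within 241 to 469, the range of the E16.5 arrays, and the E16.5 groups overlapped (0.42 ± 0.16, SE). Jade1, a subunit of a histone acetyltransferase complex, and Ccdc158, a coiled-coil protein, had E14.5 effects of -0.46 and -0.58 and E16.5 effects of 0.50 and 0.57. In Ccdc158 the groups did not overlap at either stage, and in Jade1 knockout replicate 3 lay within the E14.5 controls.

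The E14.5 knockout replicates themselves differed in germ cell genes. Sox2, a pluripotency factor that germ cells switch off as they enter meiosis, had signals of 1216, 451 and 446 in E14.5 controls, 2.54, 28.4 and 1023 in E14.5 knockouts, 21.8, 21.96, 16.0 and 13.5 in E16.5 controls and 6.20, 31.4, 19.1 and 101 in E16.5 knockouts. Replicates 1 and 2 of the E14.5 knockouts were near the E16.5 level, and replicate 3 was within the E14.5 controls. Levels of the 2 stages are compared here across arrays whose measures also differed. Pou5f1, which encodes the pluripotency factor Oct4, read 565, 225 and 264 in E14.5 controls, 63.97, 48.5 and 285 in E14.5 knockouts, 4.08, 59.9, 35.9 and 40.3 in E16.5 controls and 37.5, 62.1, 35.9 and 81.6 in E16.5 knockouts. Sall4, a zinc finger factor of early germ cells, read 1068, 289 and 465 in E14.5 controls, 37.1, 51.8 and 638 in E14.5 knockouts, 47.7, 121, 127 and 110.3 in E16.5 controls and 98.6, 154, 136 and 342 in E16.5 knockouts. The same split held for Dppa4 (83.4, 91.1 and 518 in the 3 E14.5 knockouts, against 653, 307 and 322 in controls), Dppa5a (1041, 599 and 4087 against 5306, 2286 and 2681) and Stra8, the gatekeeper of meiosis (1171, 566 and 5679 against 8166, 5351 and 5443).

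Of the 11 tested genes of pluripotency and early germ cells, 8 (72.7%) had knockout replicates 1 and 2 on 1 side of the E14.5 controls and replicate 3 within them, a pattern found in 1752 of all 12406 genes (14.1%). With replicate 1 or replicate 2 as the one within controls the counts for all genes were 972 (7.83%) and 404 (3.26%). In the other germ cell lists 4 of 27 genes of meiotic entry and prophase, 2 of 16 of the germ cell RNA pathway and 1 of 11 oocyte genes had replicate 3 as the one within controls. With replicate 1 as that one the counts of these lists were 6, 1 and 1, and with replicate 2 they were 0. The split of replicate 3 from the others was thus not that of the meiotic list as a whole. The 30 genes that passed the stage difference without replicate 3 included 4 of this list, Sox2, Sall4, Dppa4 and Dppa5a, and 6 of the 24 leading genes. In all 30 replicates 1 and 2 lay outside the E14.5 controls, and in 19 of them replicate 3 lay within, counts that the choice of the genes without replicate 3 favours. Litter and exact age are not in the labels, so their part in this split was not tested.

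Other genes among the 30, chosen after their values were seen, also set replicates 1 and 2 apart from replicate 3. Emb, a membrane protein of the immunoglobulin family, read 764, 356 and 516 in E14.5 controls, 46.8, 53.6 and 515 in E14.5 knockouts and 58.3 to 105 on the E16.5 arrays. Dmrt1, a transcription factor of germ cells and Sertoli cells, read 61.8, 62.7 and 712 in the E14.5 knockouts against 662, 393 and 442 in controls, so that replicate 3 was above the highest control. Rhox5, a homeobox gene, read 355, 217 and 2588 against 2836, 1372 and 1515. On the other side Bzw2 read 258, 292 and 201 in E14.5 controls, 1287, 1362 and 232 in E14.5 knockouts and 9632 or more at E16.5. Rtl3 read 173, 282 and 15.3 in E14.5 knockouts against 11.6, 11.3 and 12.2 in controls, so that replicate 3 was just above them.

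**Figure D3:**
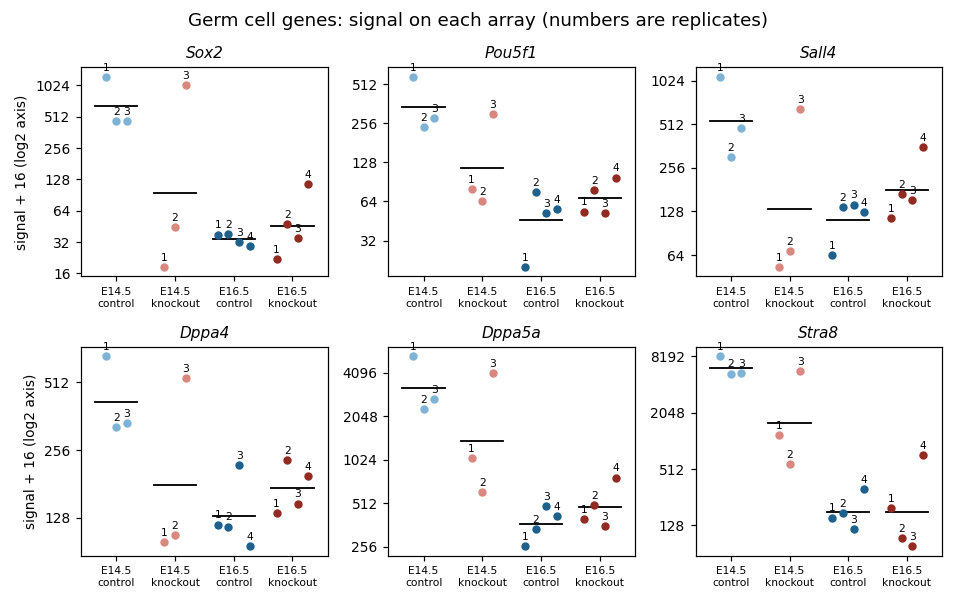
Signal + 16 on each array (log2 axis) of 6 germ cell genes, with replicate numbers beside the points and lines at group means on the log2 scale. E14.5 knockout replicates 1 and 2 lie below the E14.5 controls, and replicate 3 lies among them; E14.5 control replicate 1 is the highest control in every panel.

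As a list, the pluripotency and early germ cell genes had the largest median difference of the 42 lists, 1.61, with median effects over the 11 genes of -1.21 at the earlier stage and 0.42 at the later, beside 0.03 and 0.05 over all genes. The difference was positive in 11 of 11 genes, against 6511 of all 12406. In 7 of them it had an unadjusted p under 0.05, against 4.74% of all genes, and 0 passed. The list's shift on an array is the mean log2 over its tested members minus the mean of the controls of that stage. It was -1.64, -1.46 and 0.30 on the E14.5 knockouts and 0.60, -0.34 and -0.26 on the E14.5 controls. At E16.5 it was 0.20, 0.50, 0.32 and 0.98 in knockouts and -0.38, 0.16, 0.30 and -0.08 in controls. Groups overlapped at both stages. The member that passed at E16.5 was Klf5, a zinc finger factor that epithelia also express, with a rise of 1.08 (limma adjusted p = 0.016). E14.5 control replicate 1 had the highest shift of the list among the controls, and the lowest Pdgfra, Foxl2, Wt1 and Nr2f2 signals.

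The 42 gene lists were sorted by whether the shifts of knockout and control arrays overlapped. In 7 lists the knockout arrays lay above the controls at both stages, in 5 at E14.5 alone (4 above, 1 below), in 6 at E16.5 alone (4 above, 2 below), and in 24 at neither. No list had groups apart in opposite directions. Among single genes 12.7% had arrays that did not overlap at E14.5 and 10.4% at E16.5. Of all 12406 genes, 6855 had a positive effect at E14.5 and 7312 at E16.5, and counts of signs are read against these. The mean of all genes was itself higher on the knockout arrays, by 0.04 at E14.5, without overlap, and by 0.06 at E16.5, so small shifts are read against it. The lists were chosen with earlier results of these data known. That choice can favour a count of members that passed when it is set against the share of all genes. Whether a list's shift differed between stages was not tested.

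The 5 lists apart at E14.5 alone were noncollagen matrix, interstitial progenitors, mesonephric duct and tubule, apoptosis machinery and, lower in knockouts, oocyte genes. The noncollagen matrix and remodelling list (32 genes) had shifts of 0.19, 0.89 and 0.12 on the E14.5 knockouts and 0.59, 0.04, 0.18 and -0.09 on the E16.5 knockouts, with controls between -0.10 and 0.10. Replicate 2 at E14.5 and replicate 1 at E16.5 were far above the others. Of its 32 genes, 29 had a positive effect at E14.5 and 19 at E16.5, against 6855 and 7312 of all 12406 genes. One passed at each stage, against 0.0403% and 1.42% of all genes. That at E14.5 was Gpc3, a glypican that holds back hedgehog and growth factor signals, with signals of 3442, 3083 and 2933 in E14.5 controls, 4740.4, 5350.3 and 4551 in E14.5 knockouts, 5632, 5674, 5252 and 5185 in E16.5 controls and 6079, 6249, 5888 and 5083 in E16.5 knockouts. Gpc3 rose by 0.63 ± 0.11 at E14.5 (SE, limma adjusted p = 0.0473, 2 of 14 fits without 1 array) with no overlap, next to 0.10 ± 0.09 at E16.5, where the groups overlapped, and its difference was -0.53 ± 0.14 (SE, adjusted p = 0.398). Lama2, a laminin chain, had effects of 0.30 and -0.62, and Timp1, a protease inhibitor, rose at E16.5 (0.56, limma adjusted p = 0.0359, 7 of 14 fits).

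The interstitial progenitor list (15 genes) had shifts of 0.08, 0.33 and 0.14 at E14.5 and 0.28, -0.06, 0.25 and -0.30 at E16.5 in knockouts, and its members did not move as one. Pdgfra and Wnt5a fell at E16.5 while Dpt, the dermatopontin of fibroblasts, rose (2.27, limma adjusted p = 0.0311, 10 of 14 fits without 1 array). Duct and tubule epithelium of the mesonephros (8 genes) was at 0.36, 0.60 and 0.19 on the E14.5 knockouts, 0.06, 0.11 and -0.17 on their controls, and 0.13, 0.28, 0.21 and 0.11 on the E16.5 knockouts, where it overlapped the controls. Its member with the smallest p of the difference was Calb1, a calcium-binding protein, at 0.90 and -0.52, and 0 of the 8 passed at either stage. Of the 18 genes of that list, 10 were not tested, Lhx1, Ret and Wnt9b among them because they lay below the filter. Apoptosis machinery (15 genes) shifted by 0.09 at E14.5 and 0.15 at E16.5, and oocyte genes (11) were at -0.22, -0.14 and -0.16 on the E14.5 knockouts. No gene of these 2 lists passed. The part of tissue carried over from the mesonephros in these shifts was not tested.

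The 4 lists higher at E16.5 alone were adrenal cortex, immediate early, heat shock and endoplasmic reticulum stress, and Sertoli cell genes. Adrenal cortex genes (6 tested of 10, with Cyp11b1, Cyp11b2 and Cyp21a1 below the filter) were at 1.01, 0.55, 0.77 and 0.71 on the E16.5 knockouts and 0.19, 0.04, -0.29 and 0.06 on the controls. At E14.5 they were at 0.28, 0.80 and 0.46 in knockouts and 0.30, -0.01 and -0.29 in controls, where 1 control lay above 1 knockout. Mc2r, the receptor of the adrenal-stimulating hormone ACTH, had signals of 85.8, 58.2 and 64.7 in E14.5 controls, 113, 133 and 123 in E14.5 knockouts, 51.2, 29.7, 39.2 and 57.8 in E16.5 controls and 144, 101, 203 and 159.5 in E16.5 knockouts. Its groups did not overlap at either stage, and it rose by 1.46 ± 0.23 at E16.5 (SE, limma adjusted p = 0.00533, 14 of 14 fits without 1 array, but 0.0545 with the Gapdh covariate). The E14.5 effect was 0.71 ± 0.27 (SE) and the difference 0.75 ± 0.35, with an unadjusted p of 0.0478 and an adjusted p of 0.553. For Mc2r and for Hao2, a peroxisomal oxidase, the rise averaged over the stages passed in 14 of 14 fits, and for Mrap, the accessory protein of the ACTH receptor, in 4 of 14.

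Immediate early genes (15), which cells switch on within minutes of a stimulus, were at 0.89, 0.23, 0.35 and 0.22 on the E16.5 knockouts and 0.07, 0.78 and 0.15 on the E14.5 knockouts. Replicate 1 at E16.5 and replicate 2 at E14.5 were again the highest. A positive effect was found in 15 of 15 members at E14.5 and 13 at E16.5, against 6855 and 7312 of all 12406 genes. Nr4a1, an orphan nuclear receptor of this group, was the 1 member to pass at E16.5 (0.97, limma adjusted p = 0.0396, 5 of 14 fits without 1 array), beside 0.45 at E14.5. Heat shock and endoplasmic reticulum stress genes (15) shifted by 0.14 at E16.5 with 0 calls. Sertoli cell genes (13) were at 0.18, 0.25, 0.22 and 0.30 on the E16.5 knockouts, where 0 passed, and at 0.04, 0.21 and 0.29 on the E14.5 knockouts, where controls reached 0.19. Averaged over the stages, 3 of the 13 rose, against 1.16% of all genes, the inhibin subunits Inha and Inhbb, which granulosa cells make too, and Ptgds, a prostaglandin synthase (limma adjusted p = 0.029, 0.0255 and 0.0426, in 9, 10 and 4 of 14 fits without 1 array).

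Lower at E16.5 alone were 2 lists. The Fraser complex list (6 genes) was at -0.20, -0.42, -0.21 and -0.32 on the E16.5 knockouts and -0.08, -0.01 and 0.06 on the E14.5 knockouts, and Frem1 was its 1 call. Frem1 was lower at both stages (-0.66 and -1.58), while 3 of the 6 genes had a positive effect at each stage. The fall of the list at E16.5 alone is therefore not that of its members as a whole. Pre-granulosa genes (17) were at -0.08, -0.09, -0.07 and -0.22 on the E16.5 knockouts and -0.12, 0.16 and -0.06 on the E14.5 knockouts, and 10 of the 17 had a negative effect at each stage. Foxl2, the factor that keeps granulosa cells in their fate, had signals of 1274, 2542 and 2695 in E14.5 controls, 1439, 2011 and 1152 in E14.5 knockouts, 2672, 2527, 2580.0 and 2319 in E16.5 controls and 1475, 1684, 1243 and 1298 in E16.5 knockouts. At E16.5 the knockouts lay below all controls, and at E14.5 control replicate 1 lay among them. Foxl2 fell averaged over the stages by 0.64 ± 0.15 (SE, limma adjusted p = 0.0479), in 3 of the 14 fits without 1 array, with effects of -0.46 and -0.83 and a difference of -0.37 ± 0.31.

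**Figure D4:**
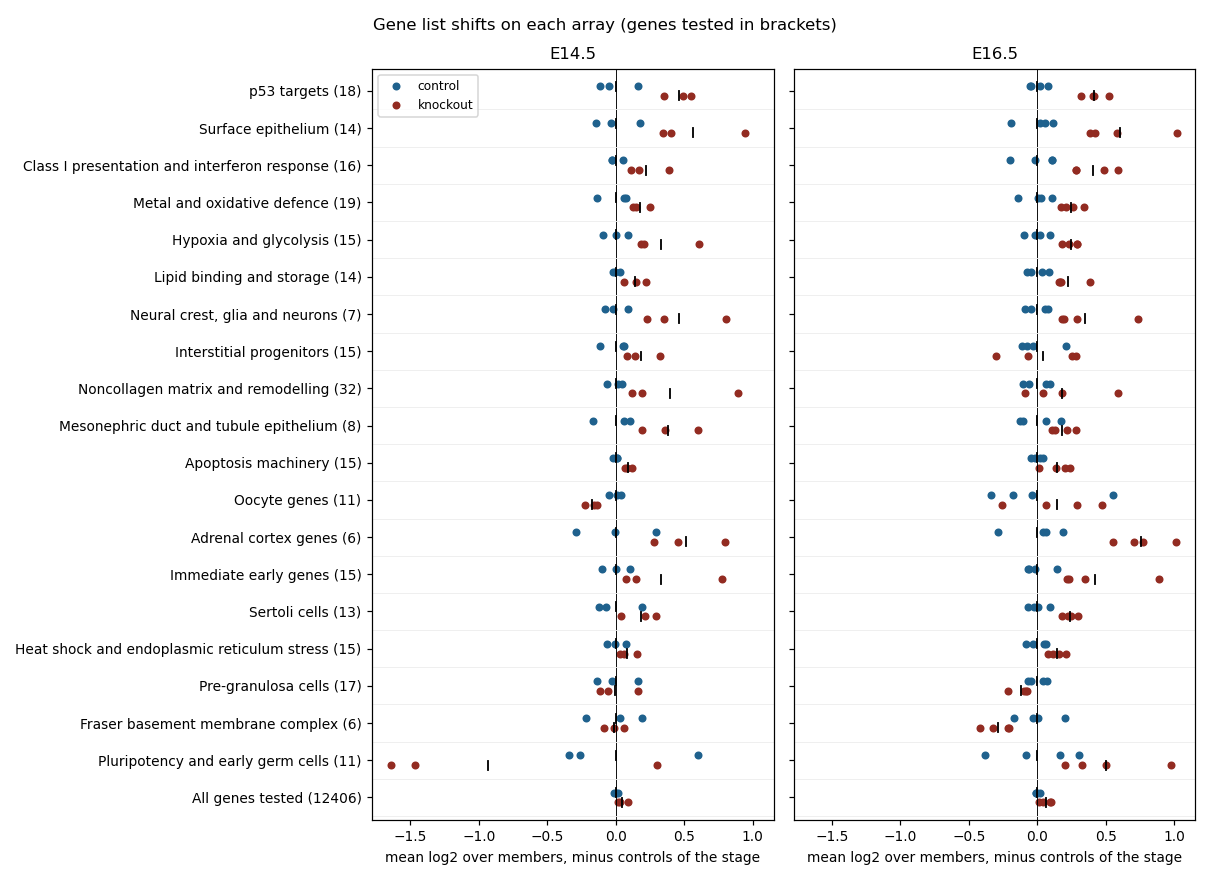
Shift of 19 gene lists and of all genes on each array (mean log2 over tested members minus the mean of the controls of that stage), at E14.5 on the left and E16.5 on the right; points are arrays and black ticks group means. The first 7 lists lie above the controls at both stages, the pluripotency list spans -1.64 to 0.30 over the E14.5 knockouts, and the mean of all genes lies at 0.10 or less on every array.

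Smooth muscle and macrophage genes overlapped at both stages. Smooth muscle genes (11) were at 0.18, 0.68 and 0.12 on the E14.5 knockouts and 0.32, -0.07, -0.04 and 0.00 on the E16.5 knockouts. Macrophage and leukocyte genes (17) were at 0.15, 0.47 and 0.00 and 0.99, 0.35, 0.46 and -0.13, with 17 of 17 positive at E16.5, against 7312 of all 12406 genes. C1qb, a complement chain, passed there (0.82, limma adjusted p = 0.048, 2 of 14 fits without 1 array). In both the same 2 arrays, E14.5 knockout replicate 2 and E16.5 knockout replicate 1, were the highest. Hedgehog genes (9) were at -0.03, 0.10 and 0.03 and -0.13, -0.16, -0.03 and -0.28, with Gli2 the 1 call. Among 27 genes of the BMP, TGF-beta and activin pathways, 1 rose (Bmp5) and 1 fell (Tgfb2) at E16.5, against 0.967% and 0.451% of all genes. At E14.5 0 passed, against 0.0403%. Averaged over the stages 4 of the 27 rose and 0 fell, against 1.16% and 0.266% of all genes. The 4 were Bmp5, Inhbb, Inha and Bambi, in 10, 10, 9 and 2 of 14 fits without 1 array. Meiotic genes (27) were at 0.00, -0.34 and -0.24 and -0.01, 0.05, -0.13 and 0.54, with 0 calls at either stage. Hormad1, a protein of the meiotic chromosome axis, had the smallest p of the difference among them (0.74 ± 0.23, SE, unadjusted p = 0.00543, adjusted p = 0.5 by limma).

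Averaged over the stages, 177 genes passed (1.43% of 12406), of which 144 (1.16%) rose and 33 (0.266%) fell. All 177 had the same sign at both stages, against 55.9% of all genes. In 80 of them (67 higher, 13 lower) the arrays did not overlap at either stage, beside 153 genes (1.23%) with that pattern among all tested. The choice of the genes on the average of the 2 effects favours both of these counts. Of the 177, 99 also passed at E16.5 and 5 at E14.5, and 74 passed at neither stage alone. The 95% interval of the difference lay within -1 to 1 for 97 of them, so for the others a difference of 2-fold between the stages was not excluded by the interval, and 42 (23.7%) had an unadjusted p of the difference under 0.05, against 8.91% of all genes. Cga, Pmaip1, Pram1 and Gpc3 were among the 177, so a passed average does not show an equal effect at both stages. The number changed with single arrays. It was 58 to 370 in the fits without 1 array: 76 and 58 without E14.5 control replicates 2 and 3, 74 and 370 without E14.5 knockout replicates 2 and 3, 103, 92 and 109 without E16.5 control replicates 1, 3 and 4, and 96 and 283 without E16.5 knockout replicates 1 and 2. Of the 177, 50 passed in all 14 such fits. Of the averaged calls given in the text as held in fewer than 14 of the 14 fits, that of Inhbb passed with the Gapdh covariate and each other ended.

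Targets of p53 were higher in knockouts at both stages. p53 is the transcription factor of the DNA damage response, and its targets hold the cell cycle or trigger cell death. The 18 tested targets shifted by 0.49, 0.55 and 0.35 on the E14.5 knockouts and 0.53, 0.41, 0.42 and 0.32 on the E16.5 knockouts, with controls between -0.11 and 0.16. The median effect was 0.22 at E14.5 and 0.31 at E16.5, beside 0.03 and 0.05 over all genes. Averaged over the stages 6 of the 18 rose, against 1.16% of all genes. The choice of the list with earlier results of these data known can favour that count. Ccng1, cyclin G1, had signals of 2945, 1621 and 1345 in E14.5 controls, 4087, 3879 and 3455 in E14.5 knockouts, 911, 987, 936 and 951 in E16.5 controls and 2576, 1982, 2459 and 2060.4 in E16.5 knockouts. All knockouts were above all controls at both stages, and Ccng1 rose by 1.13 ± 0.13 averaged over the stages (SE, limma adjusted p = 0.000616, 14 of 14 fits without 1 array), with a difference of 0.22 ± 0.27.

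Eda2r, a death receptor of the TNF receptor family, read 159.6, 85.2 and 71.98 in E14.5 controls, 342, 277 and 254 in E14.5 knockouts, 167, 182, 182 and 191 in E16.5 controls and 451, 510.2, 616 and 255 in E16.5 knockouts. It rose by 1.39 at E14.5 and 1.21 at E16.5, 1.30 ± 0.18 averaged (SE, limma adjusted p = 0.00201, 14 of 14 fits), again with no overlap. Cdkn1a, the cell cycle inhibitor p21, read 537, 342 and 394 against 673, 811 and 524 at E14.5 and 464, 452, 457 and 391 against 1008, 1135, 1045 and 838 at E16.5, controls first, and all but 1 of the 3 E14.5 knockouts exceeded every control of their stage. Its averaged rise was 0.90 ± 0.12 (SE, limma adjusted p = 0.00155, 14 of 14 fits), and its difference of 0.52 ± 0.24 had an unadjusted p of 0.0466 (adjusted p = 0.552). Zmat3, an RNA-binding p53 target, rose by 0.73 ± 0.11 (SE, limma adjusted p = 0.00327, 14 of 14 fits). Phlda3 was the fifth (0.68 and 0.40; the call was lost without E14.5 control replicate 3, adjusted p = 0.0667), and Pmaip1 was the sixth (2.02 and 0.09; averaged call in 5 of 14 fits without 1 array, adjusted p = 0.0904 with the Gapdh covariate). Mdm2, the p53 ubiquitin ligase, had effects of 0.00 and 0.24 and did not pass.

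Surface epithelium genes (14), which mark the layer that covers the ovary and other coelomic organs, were at 0.35, 0.95 and 0.41 on the E14.5 knockouts and 1.02, 0.42, 0.58 and 0.39 on the E16.5 knockouts. Controls lay between -0.19 and 0.18. Krt19, a keratin of simple epithelia, had signals of 1097, 501 and 415 in E14.5 controls, 1851, 2039 and 1284 in E14.5 knockouts, 1370.2, 1094, 684 and 975.1 in E16.5 controls and 2610.1, 2241, 2286 and 2391 in E16.5 knockouts. Krt19 rose by 1.34 ± 0.19 averaged over the stages (SE, limma adjusted p = 0.00193, 14 of 14 fits without 1 array), without overlap at either stage, and its difference was -0.21 ± 0.38. Gpm6a, a membrane glycoprotein of neurons and mesothelium, rose by 1.46 ± 0.24 (SE, limma adjusted p = 0.00541, 14 of 14 fits), with 1.49 and 1.44 at the stages. Krt7 rose as well (limma adjusted p = 0.016, 11 of 14 fits). Krt8 and Krt18 had effects of 0.26 and 0.16 at E14.5 and -0.16 and -0.03 at E16.5, and Lgr5 was level at 0.00 and 0.03. Matrix genes moved with the list on the same 2 arrays, E14.5 knockout replicate 2 and E16.5 knockout replicate 1.

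The averaged effect with the smallest p was that of Ephx1, the microsomal epoxide hydrolase that detoxifies xenobiotics. Its signals were 211, 182 and 123 in E14.5 controls, 379.6, 479.5 and 357 in E14.5 knockouts, 109, 75.5, 77.7 and 83.9 in E16.5 controls and 389, 370.0, 284 and 310.3 in E16.5 knockouts. Ephx1 rose by 1.18 at E14.5 and 1.79 at E16.5, 1.49 ± 0.14 averaged (SE, limma adjusted p = 7.96e-05, 14 of 14 fits), with no overlap and a difference of 0.61 ± 0.28 (unadjusted p = 0.0458, adjusted p = 0.549). The list of metal and oxidative defence (19 genes) was likewise chosen with earlier results of these data known. In it 4 genes rose averaged over the stages, against 1.16% of all genes. They were Ephx1, the metallothioneins Mt1 and Mt2, and the glutathione transferase Gsta4, with Mt2 in 12 and Gsta4 in 1 of 14 fits without 1 array. Mt1 read 3103, 2878 and 2392 against 5797, 6008 and 4874 at E14.5 and 3188, 3028, 2185 and 3969.8 against 3949.9, 4167, 3900.2 and 4721 at E16.5, controls first, and rose by 0.73 ± 0.11 averaged (SE, limma adjusted p = 0.00379, 14 of 14 fits). Gpx4, a lipid peroxide scavenger, was at -0.66 and 0.32, with opposite signs at the stages (limma adjusted p of the difference = 0.412).

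Other functions apart at both stages were class I presentation and the interferon response, hypoxia and glycolysis, lipid binding, and neural genes. B2m, the light chain of class I molecules, had signals of 3945, 3312 and 3125 in E14.5 controls, 6485, 6219.9 and 4931 in E14.5 knockouts, 6355, 5375, 5199.8 and 5643 in E16.5 controls and 8039, 8623, 7593 and 7633 in E16.5 knockouts. B2m passed averaged (0.63 ± 0.08, SE, limma adjusted p = 0.0012), in 14 of 14 fits without 1 array and with the Gapdh covariate, without overlap at either stage. It also passed at E14.5, in 2 of the 14 fits, and at E16.5, in 10 of them, and with the covariate at neither (limma adjusted p = 0.0686 and 0.0997). The interferon-induced Bst2 and Psmb9 of the same list were at 0.20 and -0.21 at E14.5 and at 1.37 and 0.86 at E16.5. Of the 15 hypoxia and glycolysis genes, 2 rose averaged, against 1.16% of all genes, Hk2 and Car9 (limma adjusted p = 0.0303 and 0.0396, 7 and 4 of 14 fits). Fabp3 and Fabp4, fatty acid carriers, rose too (limma adjusted p = 0.0451 and 0.0317, 3 and 6 of 14 fits), with Fabp3 at 0.35 and 1.53. Prph, a filament of peripheral neurons, rose by 1.26 ± 0.23 (SE, limma adjusted p = 0.0121, 14 of 14 fits, but 0.0546 with the Gapdh covariate). Of the 19 neural crest, glia and neuron genes 7 were tested, and Sox10, Phox2a, Th and Tubb3 lay below the filter.

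Larger averaged rises were also those of Ecrg4, a secreted peptide precursor, Efemp1, a fibulin, and Col14a1, a fibril-associated collagen. Their averaged effects were 1.33 ± 0.21, 1.32 ± 0.22 and 1.30 ± 0.27 (SE), with stage differences of 0.38, 0.35 and 0.45. The call of Efemp1 ended with the Gapdh covariate (adjusted p = 0.062). That of Col14a1 ended with it too (0.164), and was lost without E14.5 control replicate 2, control replicate 3 or knockout replicate 2 (adjusted p up to 0.0943).

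Averaged falls were fewer, 33 against 144 rises. Amph, amphiphysin, a membrane-bending protein of endocytosis, had signals of 373, 714 and 964 in E14.5 controls, 363, 288 and 148 in E14.5 knockouts, 266, 328, 276 and 243 in E16.5 controls and 103, 93.3, 99.6 and 125 in E16.5 knockouts. Amph fell by 1.29 ± 0.20 averaged (SE, limma adjusted p = 0.00398, 14 of 14 fits), with effects of -1.29 and -1.28 at the stages and a difference of 0.01 ± 0.40. Dact1, an inhibitor of WNT signalling, Gprin2, a G protein partner of neurite growth, and Grk5, a receptor kinase, fell by 0.71, 0.66 and 0.61 averaged (limma adjusted p = 0.00481, 0.0102 and 0.0048, 14 of 14 fits each). The call of Gprin2 ended with the Gapdh covariate (adjusted p = 0.0637). Their stage differences were -0.29, -0.09 and -0.34, with intervals within 1 of 0. Aff3, a transcription elongation factor, fell by 0.79 (limma adjusted p = 0.0147; lost without E14.5 control replicate 3, adjusted p = 0.0627).

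In 3 more falls the E16.5 value was the larger. Lgi1, a secreted synaptic protein, read 76.8, 80.9 and 102 against 69.9, 64.3 and 51.2 at E14.5 and 169, 133, 167 and 139 against 53.1, 51.2, 69.5 and 57.3 at E16.5, controls first. Its effects were -0.40 ± 0.22 and -1.19 ± 0.19 (SE), with an averaged call lost without E14.5 control replicate 3 (adjusted p = 0.0505). Lrfn5, a synaptic adhesion protein, was at -0.49 and -1.35, and its averaged call held in 6 of 14 fits. Wnt5a, a WNT ligand of mesenchyme, had signals of 1059, 1741 and 1574 in E14.5 controls, 643, 825 and 1227 in E14.5 knockouts, 1355, 1730.0, 1454 and 1471 in E16.5 controls and 716, 454, 697 and 496 in E16.5 knockouts. Wnt5a fell by 1.03 ± 0.15 averaged (SE, limma adjusted p = 0.00309, 14 of 14 fits), with -0.71 at E14.5, where 1 knockout overlapped the controls, and -1.34 at E16.5, where none did. The stage difference of Wnt5a was -0.64 ± 0.30 (unadjusted p = 0.0512, adjusted p = 0.561).

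**Figure D5:**
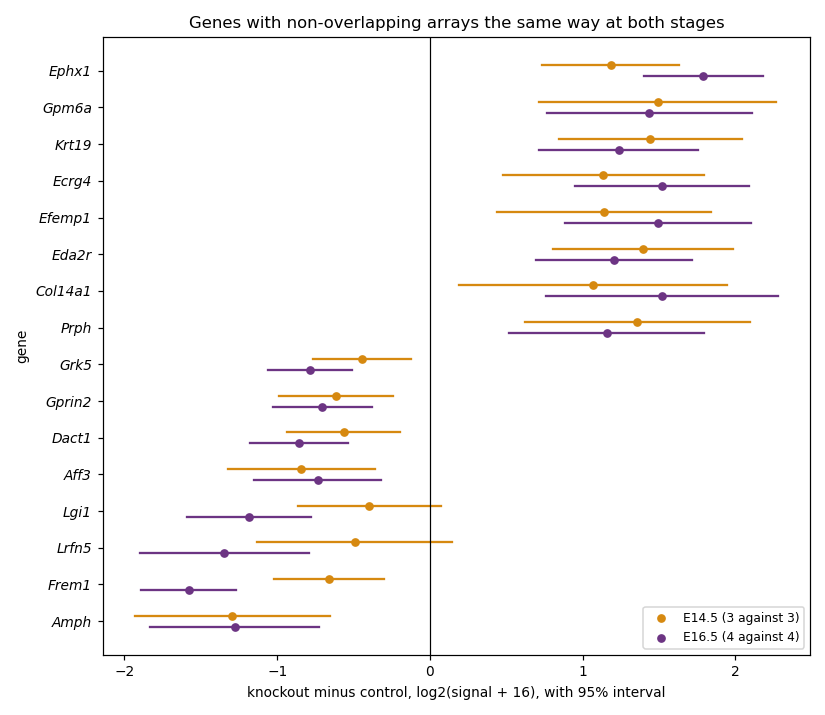
Knockout effect (log2 signal + 16, points) with its 95% interval (lines) at E14.5 and E16.5 for the 8 genes with the largest rise and the 8 with the largest fall in averaged effect among genes whose averaged effect passed and whose arrays did not overlap at either stage. Ephx1 has the largest averaged rise shown and Amph, at -1.29 and -1.28, the largest fall; Frem1, Lrfn5 and Lgi1 lie further from 0 at E16.5 than at E14.5.

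The genes called at 1 stage were then read at the other. The arrays of that other stage entered the choice through the shared estimate of the spread, the choice of probe set and the filter on mean signal. At E14.5 5 genes passed (0.0403% of those tested), and 1061 (8.55%) had an unadjusted p under 0.05. The 5 were B2m, Gpc3, Mt1, Pmaip1 and Pram1. Their E16.5 effects were 0.50, 0.10, 0.46, 0.09 and 0.26, and B2m alone passed there. Pram1, an adaptor of myeloid cells, read 9.88, 5.85 and 8.56 in E14.5 controls, 82.4, 92.0 and 29.9 in E14.5 knockouts and 161 to 276 on the E16.5 arrays of both groups. Its E14.5 knockouts lay between the E14.5 controls and the E16.5 arrays. In the fits without 1 array the number of E14.5 calls was 0 in 10, 1 without E14.5 knockout replicate 1 or E16.5 control replicate 3, 23 without E14.5 control replicate 1 and 179 without E14.5 knockout replicate 3.

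At E16.5, 176 genes passed (1.42%), 120 (0.967%) higher and 56 (0.451%) lower. Of the 176, 148 (84.1%) had the same sign at E14.5, against 55.9% of all genes. Of the 120 that rose at E16.5, 108 were positive at E14.5 with a median of 0.37, next to 0.94 at E16.5, and 50 (41.7%) had an unadjusted p under 0.05 there, against 5.45% of all genes. Of the 56 that fell, 40 were negative at E14.5, the median was -0.16 next to -0.85, and 10 (17.9%) had an unadjusted p under 0.05, against 3.1%. The E16.5 medians are larger by the choice of the genes. Without 1 array the count was 83, 78, 80 and 100 for E16.5 control replicates 1 to 4, and 43, 494 and 102 for knockout replicates 1, 2 and 4. Of the 176, 39 passed in all 14 fits without 1 array. Of the 8 leading genes called at E16.5, Cga and Frem1 passed with the Gapdh covariate (limma adjusted p = 0.0417 and 0.000378).

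Among the E16.5-called genes with the smallest p of the difference were Cga, Tgfb2, Shroom4, Hmgn3, Igf2bp1, Cystm1, Scap and Frem1, all described above. Col25a1, a membrane collagen, read 276, 367 and 334 against 312, 236 and 213 at E14.5 and 1027, 1688, 811 and 661 against 224, 334, 529.7 and 243 at E16.5, controls first. It fell at E16.5 by 1.60 ± 0.27 (SE, limma adjusted p = 0.00714, 14 of 14 fits, but 0.15 with the Gapdh covariate), next to -0.35 at E14.5, where the groups overlapped. Plvap, a protein of fenestrated endothelium, rose at E16.5 by 1.18 ± 0.21 (SE, limma adjusted p = 0.0111; lost without E16.5 knockout replicate 1, adjusted p = 0.053), with 0.29 at E14.5. Hsd3b1, a dehydrogenase of steroid synthesis, read 1947, 1118 and 752 against 3337, 2911 and 1421 at E14.5 and 2106, 1095, 1316 and 1034 against 5800.3, 3305, 4305 and 3012 at E16.5. Its averaged rise of 1.29 ± 0.23 passed (SE, limma adjusted p = 0.0109, 14 of 14 fits, but 0.0521 with the Gapdh covariate), and the stage difference was 0.55 ± 0.46.

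Promoter windows of RefSeq (GRCm38.p6, 250 bases before to 50 bases after a gene's start) were searched on both strands for AGGTCA, the half-site that COUP-TFII shares with other nuclear receptors. Of the 24 genes with the smallest p of the difference, 17 had 33 windows, of which 4 (12.1%) held it, in Cast, Cga, Frem1 and Speg. Of the 16 genes with the largest averaged effects shown above, 14 had 16 windows, of which 1 (6.25%) held it. The share over windows of all genes tested was 12.3%. The 250 bases before the start are shown for the 2 of these genes whose E16.5 effects were the largest, Frem1 lower and Cga higher, with the half-site in capitals. They lie at chr4:83021103-83021352 on the minus strand for Frem1, 1 of its 2 windows, and at chr4:34893529-34893778 on the plus strand for Cga.
Frem1: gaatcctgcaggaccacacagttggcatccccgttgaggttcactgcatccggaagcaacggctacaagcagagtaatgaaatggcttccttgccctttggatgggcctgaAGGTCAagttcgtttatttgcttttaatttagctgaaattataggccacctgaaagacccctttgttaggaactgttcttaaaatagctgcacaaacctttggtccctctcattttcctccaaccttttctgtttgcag
Cga: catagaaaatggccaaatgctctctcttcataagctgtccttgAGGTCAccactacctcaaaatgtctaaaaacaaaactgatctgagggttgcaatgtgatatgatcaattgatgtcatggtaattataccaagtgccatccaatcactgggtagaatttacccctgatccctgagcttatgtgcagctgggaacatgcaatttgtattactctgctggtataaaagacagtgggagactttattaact
The half-site begins 139 bases before the start in Frem1 and 207 bases before it in Cga, in both cases on the strand of the gene. A match is a description of the sequence, and binding was not measured.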

How the data were processed

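Whole-ovary RNA was isolated with a PicoPure kit, amplified with the Affymetrix 3' IVT Express kit and hybridized to 1 array per sample, per the labels. The deposited values are linear probe set intensities, for which the submitters' processing notes name Affymetrix Expression Console and the MAS5 algorithm, without versions. The 2% trimmed mean of each array was 500. Of 45037 probe sets other than controls, 34945 had 1 gene symbol, 932 several and 9160 none, and 34741 matched a RefSeq gene ID. The brightest probe set stood for each of 18193 genes. Genes whose mean signal was above the 40th percentile (62.0) were tested on log2(signal + 16) with limma 3.58.1 in R 4.3.3 (lmFit, eBayes with a trend) over all 4 groups, with Benjamini-Hochberg adjustment, for both stage effects, their difference and their average. The number of arrays limits the precision. The scripts were tested on simulated data. The members and the 42 gene lists were chosen with earlier results of these data known. Named genes were, clone and predicted symbols aside, Nr2f2 and Wt1, the 12 genes with the smallest p of the difference in each direction, genes called at E14.5, the 8 E16.5 calls with the smallest p of the difference, the 8 largest averaged effects in each direction without overlap at either stage, and the leading members of lists. Other genes the text names were chosen after their values were seen. Same-numbered arrays were not paired. Alternatives changed the pseudocount, normalization, filter, array weights, trend, threshold, a replicate block, a Gapdh covariate and the arrays used.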

Additional observations from a re-analysis of the deposited data

Results flagged for a closer look

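Among 246 groups of 4 E16.5 arrays (80 genes and 43 list shifts), 12 held 1 array whose gap to its nearest neighbour was a larger share of the group's whole range than Dixon's 95% critical value; that share is given for each. Chance gives about 5% of groups. Among controls these were Ccdc158 in replicate 1 (0.856), Scara5 in replicate 4 (0.913), Sall4 in replicate 1 (0.849), Cwc22 in replicate 2 (0.905) and Cdkn1a in replicate 4 (0.849). Among knockouts they were Emb in replicate 3 (0.973), Pdgfra in replicate 3 (0.854), Lrfn5 in replicate 3 (0.908), Dmrt1 in replicate 4 (0.837) and Nr4a1 in replicate 2 (0.860). The shift of the pre-granulosa list stood apart in knockout replicate 4 (0.845), and that of the lipid binding list in knockout replicate 1 (0.928). Groups of 3 arrays, all those of E14.5, were not tested in this way.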

How the results depend on the processing

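The count of genes past the stage difference was 1 with no filter, 0 to 30 without 1 array, and 0 under the other alternatives. The averaged count of 177 was 117 with median centring, 105 with a 60th percentile filter, 284 with array weights, 377 at an adjusted p threshold of 0.1, 54 with the Gapdh covariate, 62 without E16.5 knockout replicates 1 and 4, 40 without E14.5 knockout replicate 2 and E16.5 knockout replicate 1 (chosen after seeing the data), and 58 to 370 without 1 array. The E16.5 count of 176 was 279 with quantile normalization, 466 at a threshold of 0.1, 18 with the Gapdh covariate, 16 and 45 without those pairs of arrays, and 43 to 494 without 1 array. The E14.5 count of 5 was 9 with no filter, 11 with array weights, 15 over all probe sets (chosen after seeing the data), 0 to 179 without 1 array, and 0 with a pseudocount of 64, quantile normalization, median centring, a 60th percentile filter, no trend, the Gapdh covariate and either pair left out. The cause of these changes was not tested. With a replicate block the counts were 0 for the difference, 229 averaged, 9 at E14.5 and 293 at E16.5. Correlations between same-numbered arrays were -0.05 to 0.43. They exceeded the highest with another number for E14.5 replicate 2 (0.16 against -0.03) and E16.5 replicates 1 and 4 (0.19 and 0.43 against -0.02 and -0.09). For the other replicates they were below it. The labels do not name pairs and the numbers were not taken as such, though a pairing in part of the series was not excluded. The difference of Nr2f2 reversed to 0.16 with array weights, 0.023 without E16.5 knockout replicates 1 and 4, 0.22 without E14.5 control replicate 1 and 0.011 without E14.5 knockout replicate 3, and ran from -0.35 to 0.22 without 1 array; it was -0.66 with the mean of the probe sets and -0.26 with the Gapdh covariate. Single genes under single alternatives kept direction and side of the threshold in 2291 cases, gained a call in 33, lost one in 113 and reversed in 4. For list shifts 955 cases moved by less than the spread between arrays and 11 by more. Signals near the pseudocount have compressed fold changes.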
